A study of Rattus norvegicus with 6 samples.

Results

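The genes of the ISG15 conjugation machinery were followed in cerebral arteries of rats, 6 hours after subarachnoid haemorrhage (SAH), in which blood escapes into the cerebrospinal fluid beneath the arachnoid membrane. The set holds 5 genes of the 18166 measured: Isg15, the modifier; Uba7, its activating enzyme (E1); Ube2l6, its conjugating enzyme (E2); Herc6, a ligase (E3); and Usp18, the protease that removes it. They were chosen by name, and each gene is given by the probe set that names it alone and has the highest mean over all 6 arrays. Of the 6 Affymetrix arrays, 3 held arteries of SAH-operated male rats (numbered 1, 4 and 5) and 3 those of sham-operated male rats (numbered 6, 7 and 8). The labels give no strain, age or further treatment, no time after surgery for the sham rats, and nothing on whether animals were pooled or whether each array is another animal. The p-values therefore measure the spread between these samples, which may be technical.

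ISG15 is a small ubiquitin-like protein whose gene is switched on by interferon. As with ubiquitin, an E1 enzyme activates it, an E2 enzyme carries it and an E3 ligase helps to attach it to lysines of other proteins. USP18 cleaves it off again, and apart from that activity holds back signalling at the type I interferon receptor. The main E3 ligase for ISG15 is HERC5 in human cells and HERC6 in the mouse. Free ISG15 is also released from cells and has been described, in human and mouse, as a ligand of the integrin LFA-1. The arrays measured transcripts, so the amount of ISG15 bound to proteins is not known from them.

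All values are log2 expression values from robust multi-array averaging (RMA), and differences are SAH minus sham. Of the 5 genes, 4 (Isg15, Uba7, Herc6 and Usp18) rose after SAH and Ube2l6 did not pass the test (limma, adjusted p under 0.05). Over all genes tested, 0.963% were called higher. In each of the 5 genes every SAH value lay above every sham value, as in 11.4% of all genes. The median difference was 2.005 over the 5 genes and -0.01 over all genes.

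**Figure D1:**
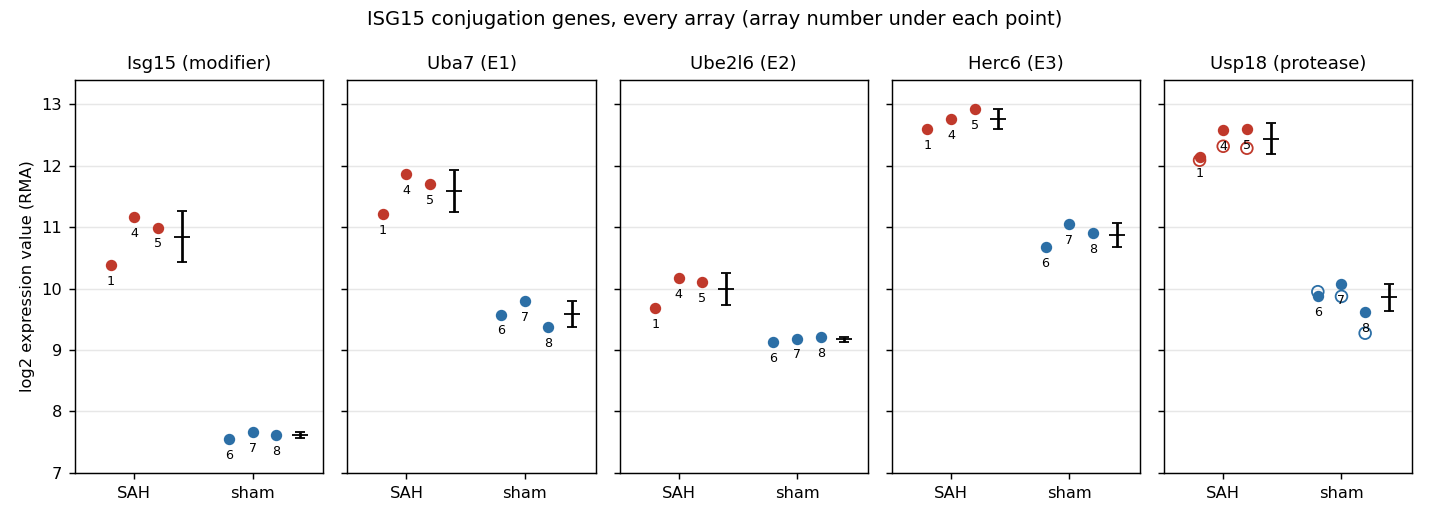
Log2 expression value (vertical axis) of the 5 genes on each of the 3 SAH arrays (red, left) and 3 sham arrays (blue, right), with array numbers under the points and mean ± SD in black. Open circles are the other probe set of Usp18. In every panel the SAH points lie above the sham points, with the narrowest gap, 0.48, for Ube2l6. Heights are not comparable between panels, since each probe set has its own response.

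Isg15, the modifier (probe set 17813404), gave 10.38, 11.16 and 10.99 on arrays 1, 4 and 5 (SAH), against 7.56, 7.66 and 7.62 on arrays 6, 7 and 8 (sham). The sham values lay within a narrow band, and the lowest SAH value stood 2.72 above the highest sham value. The mean was 10.85 ± 0.41 in SAH and 7.61 ± 0.05 in sham arteries (SD, n = 3 each), a 9.41-fold rise with a log2 difference of 3.23 ± 0.20 (SE; limma adjusted p = 0.00251). Among the probe sets of its array Isg15 stood at percentile 92.0 or above in SAH arteries, against percentiles 54.5 to 56.3 in sham arteries. RMA values understate fold changes of probe sets near background. By difference Isg15 ranked 9 among the 18166 genes.

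Uba7, the E1 enzyme that activates ISG15 (probe set 17847586), gave 11.21, 11.86 and 11.70 on arrays 1, 4 and 5 (SAH), against 9.58, 9.80 and 9.37 on arrays 6, 7 and 8 (sham). SAH array 1 was the lowest of the SAH arrays and still 1.41 above the highest sham array. Uba7 was 4.01-fold higher in SAH, at 11.59 ± 0.34 against 9.58 ± 0.21 in sham arteries (SD, n = 3 each), with a difference of 2.005 ± 0.195 (SE; limma adjusted p = 0.0104). Its call ended without SAH array 4 (adjusted p = 0.0615), SAH array 5 (0.0553) or sham array 6 (0.0738), where the limma differences were 1.87, 1.95 and 2.002. Of all genes, 0.22%, 0.314% and 0.16% were called higher in those 3 fits.

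Ube2l6, the E2 enzyme (probe set 17763463), gave 9.69, 10.18 and 10.10 on arrays 1, 4 and 5 (SAH), against 9.13, 9.19 and 9.21 on arrays 6, 7 and 8 (sham). The sham values were close together and SAH array 1 lay between them and the other SAH arrays. The means were 9.99 ± 0.26 in SAH and 9.18 ± 0.04 in sham arteries (SD, n = 3 each), and the difference of 0.81 ± 0.14 (SE, 95% interval 0.47 to 1.16) missed the threshold (limma adjusted p = 0.0712, unadjusted p = 0.000825). Without SAH array 1 the difference was 0.96 ± 0.10 and passed (limma adjusted p = 0.0110), in a fit that called 2.68% of all genes higher. In human and mouse cells this enzyme can also carry ubiquitin.

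Herc6, the ligase gene of the HERC family (probe set 17791632), gave 12.60, 12.76 and 12.92 on arrays 1, 4 and 5 (SAH), against 10.67, 11.05 and 10.90 on arrays 6, 7 and 8 (sham). The groups were 1.55 apart at their nearest values. Herc6 rose 3.71-fold, with 12.76 ± 0.16 in SAH and 10.87 ± 0.19 in sham arteries (SD, n = 3 each) and a difference of 1.89 ± 0.14 (SE; limma adjusted p = 0.00403). Among the probe sets of its array Herc6 stood at percentile 99.5 or above in SAH arteries, against percentiles 93.8 to 95.9 in sham arteries.

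Usp18, the ISG15 protease (probe set 17796641), gave 12.15, 12.58 and 12.59 on arrays 1, 4 and 5 (SAH), against 9.88, 10.07 and 9.62 on arrays 6, 7 and 8 (sham). The difference was 2.58 ± 0.17 (SE), a 5.99-fold rise (limma adjusted p = 0.00307; 12.44 ± 0.25 in SAH and 9.86 ± 0.22 in sham arteries, SD, n = 3 each). Usp18 is the only one of the 5 genes with another probe set that names it alone (17786684). That probe set gave 12.09, 12.32 and 12.29 on arrays 1, 4 and 5 (SAH), against 9.95, 9.87 and 9.27 on arrays 6, 7 and 8 (sham). It gave a difference of 2.53 ± 0.19 (SE; limma adjusted p = 0.00437), which is 5.78-fold, and on both probe sets sham array 8 was the lowest.

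The order of the differences was Isg15, Usp18, Uba7, Herc6 and Ube2l6. Whether 1 gene moved more than another was tested on the difference between both genes within each array, for all 10 pairs (exact two-sided permutation test, whose smallest possible p here is 0.1). For 9 pairs the SAH and sham values of this difference did not overlap, which gave p = 0.1 (exact) and an adjusted p of 0.111 for each, so no pair could pass. Isg15 moved 0.65 ± 0.16 (SE) log2 units more than Usp18, 1.23 ± 0.12 more than Uba7, 1.34 ± 0.20 more than Herc6 and 2.42 ± 0.09 more than Ube2l6. Usp18, the gene of the removing enzyme, moved 0.58 ± 0.07 more than Uba7, the gene of the activating enzyme. Uba7 and Herc6 were neighbours that overlapped, with a difference of 0.11 ± 0.19 between them (exact permutation p = 0.6), and this difference fell below 0 without SAH array 4 (-0.02) or without sham array 8 (-0.003). Probe sets differ in how fully they follow a change in RNA, so these differences hold for the probe sets.

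By array, the mean shift of the 5 genes from their sham means was 1.78, 2.29 and 2.24 on arrays 1, 4 and 5 (SAH), against -0.06, 0.13 and -0.07 on arrays 6, 7 and 8 (sham). All 5 genes were lowest in SAH array 1 among the SAH arrays. The same held for 153 of the 175 genes called higher (87.4%) and for 32.6% of all genes, so the 5 genes share this order with most of the other rising genes.

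Markers of neutrophils were also higher on average in SAH. The mean log2 value over the 14 of 16 neutrophil markers measured was 8.74, 8.79 and 9.58 on arrays 1, 4 and 5 (SAH), against 7.32, 7.57 and 9.31 on arrays 6, 7 and 8 (sham), and none of the 14 passed (limma; 4 higher and none lower at an unadjusted p under 0.05). Over all 18166 genes, 1482 were higher and 1903 lower at that unadjusted cutoff. In the neutrophil markers sham array 8 stood above SAH arrays 1 and 4. The shift of sham array 8 was 0.01, 0.04 and 0.03 in Isg15, Ube2l6 and Herc6, and -0.21 and -0.23 in Uba7 and Usp18. With the neutrophil mean as a covariate the differences were 3.18 for Isg15, 2.68 for Usp18 and 1.81 for Herc6, which passed (limma adjusted p = 0.0331, 0.0306 and 0.0474), and 2.09 for Uba7 and 0.75 for Ube2l6, which did not (0.0672 and 0.280). In that fit 0.231% of all genes were called higher. With 6 arrays and markers that were higher on average in SAH, the fit cannot tell neutrophil content from SAH. The part of neutrophils in the rises was not tested.

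**Figure D2:**
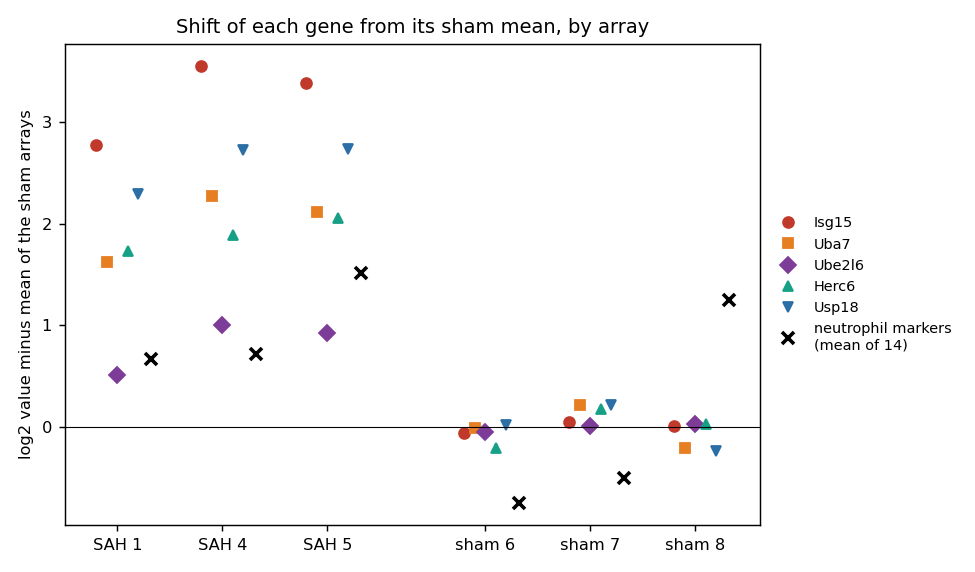
Log2 value minus the mean of the sham arrays (vertical axis) for the 5 genes and for the mean of 14 neutrophil markers, on each of the 6 arrays. The 5 genes lie between 0.51 and 3.55 in the SAH arrays and between -0.23 and 0.22 in the sham arrays. The neutrophil markers are highest in SAH array 5 and sham array 8.

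Markers of other cells were measured as well. The mean over 8 smooth muscle markers lay between 11.49 and 11.56 in SAH and between 11.75 and 11.95 in sham arteries, and that over 11 fibroblast and leptomeningeal markers between 11.23 and 11.54 in SAH arteries and at 11.65 on each sham array. The mean over 11 lymphocyte markers was 7.34 to 7.45 in SAH and 6.96 to 7.29 in sham arteries. The mean over 16 monocyte and macrophage markers lay between 9.60 and 9.77 in SAH and between 9.49 and 10.04 in sham arteries, with members on both sides: Ccr2 and Ptprc differed by 1.86 ± 0.59 and 0.93 ± 0.27, and Mrc1 and Cd163 by -1.24 ± 0.39 and -1.29 ± 0.44 (SE; limma adjusted p between 0.197 and 0.250). The mean over 10 endothelial markers lay between 10.09 and 10.31 in SAH and between 10.21 and 10.47 in sham arteries. That over 7 erythroid and platelet markers was 7.52 to 8.105 in SAH and 7.45 to 7.61 in sham arteries. All 7 had a difference above 0, as had 10 of the 11 lymphocyte markers, and none of either list passed. All 11 fibroblast and leptomeningeal markers and 7 of the 8 smooth muscle markers had a difference below 0. The mean over 7 dendritic cell markers was 7.60 to 7.76 in SAH and 7.59 to 7.68 in sham arteries. For 11 brain markers it was 7.61 to 8.035 in SAH and 7.74 to 8.11 in sham arteries. Of these markers Smtn, a smooth muscle gene, passed in the main setting and was lower (-1.18 ± 0.13 SE, limma adjusted p = 0.0197). The others missed the threshold there. Of the 10 endothelial markers, 3 had a difference above 0 and 7 below, among the latter Cldn5 (-0.76), Tek (-0.50) and Nos3 (-0.39). The endothelial marker Cdh5 (0.61), of those above 0, passed with the filter on dim probe sets and with the trend and robust options (limma adjusted p = 0.0299 and 0.0419). The macrophage marker Csf1r (-0.50) passed with that filter (limma adjusted p = 0.0457). With an array left out, Smtn passed only without SAH array 1 or sham array 8 (limma adjusted p = 0.0146 and 0.0425). Without sham array 8, Ccr2 and the neutrophil marker Fcnb were called higher, by 2.62 and 2.65 (limma adjusted p = 0.0163 and 0.0417). Itga2b, a platelet marker, was called higher without SAH array 1, by 1.12 (limma adjusted p = 0.00733). The smooth muscle markers Acta2 and Cnn1 and the endothelial markers Pecam1 and Kdr had no probe set of their own here. The part of cell composition in the rises was not tested, and in whole arteries more cells of a type and more RNA per cell cannot be told apart.

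Each of the 5 genes was set beside its own enzyme family, whose members serve ubiquitin or other modifiers. In the main setting on all 6 arrays, the genes of these families other than Usp25, a deubiquitinase, missed the threshold. The family counts at an unadjusted p under 0.05 stand beside 1482 higher and 1903 lower of all 18166 genes (limma). Among 8 other E1 enzymes none passed (limma; 1 higher and none lower at an unadjusted p under 0.05), with a median difference of -0.02 and a range of -0.35 to 0.26. Uba1, the main E1 of ubiquitin, differed by 0.26 ± 0.09 (SE; adjusted p = 0.276), Uba6, which serves ubiquitin and the modifier FAT10, by -0.04 ± 0.10, and Uba3, part of the Nedd8 E1, by 0.01 ± 0.10.

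Of 29 other E2 enzymes none passed either (limma; 3 higher and 2 lower at an unadjusted p under 0.05), with a median of 0.02 and a range of -0.44 to 0.33. Ube2l3, the close relative of Ube2l6 that works with ubiquitin, gave 11.91, 11.86 and 11.89 on arrays 1, 4 and 5 (SAH), against 11.77, 11.86 and 11.90 on arrays 6, 7 and 8 (sham), so its groups overlapped. Its difference was 0.04 ± 0.09 (SE, 95% interval -0.18 to 0.26). The smallest p among these E2 genes was that of Ube2h, which differed by -0.44 ± 0.11 (limma adjusted p = 0.136).

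Of 20 other HERC and HECT ligases none passed (limma; 3 higher and 5 lower at an unadjusted p under 0.05), with a median of -0.13. Herc3 differed by 0.76 ± 0.19 (SE; adjusted p = 0.139), Herc4 by 0.03 ± 0.09 and the very large ligases Herc1 and Herc2 by -0.29 ± 0.09 and -0.42 ± 0.11 (adjusted p = 0.208 and 0.150). Hectd4 had the smallest p of the family and differed by -0.54 ± 0.11 (limma adjusted p = 0.0929, and 0.0357 with the filter on dim probe sets). Herc3 passed without SAH array 1 (limma adjusted p = 0.0336).

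Among 46 other ubiquitin-specific proteases 1 rose and none fell (limma; 7 higher and 2 lower at an unadjusted p under 0.05), and the median was -0.0035. The 1 called is 2.17% of the list, against 0.963% called higher and 0.33% lower over all genes. Without SAH array 1 the count was 5, with Usp28, Usp37, Usp42 and Usp43 also called higher, by 0.71, 0.91, 0.80 and 0.74 (limma adjusted p = 0.0302, 0.0401, 0.0226 and 0.0299), and it was 0 in each of the 5 other fits with an array left out. The fit without SAH array 1 called 2.68% of all genes higher. The list of 46 also holds 5 proteases named below as partners of ISG15. Usp25 gave 11.40, 11.95 and 11.996 on arrays 1, 4 and 5 (SAH), against 10.34, 10.34 and 10.39 on arrays 6, 7 and 8 (sham). The sham arrays were nearly level and all SAH arrays were higher, by 1.43 ± 0.17 (SE; 2.69-fold; limma adjusted p = 0.0214). With an array left out Usp25 passed only without SAH array 1 (adjusted p = 0.00249), and over the 6 such fits its difference lay between 1.32 and 1.62 and its adjusted p reached 0.128.

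Of 14 other ubiquitin-like modifiers none passed (limma; 1 higher and 3 lower at an unadjusted p under 0.05), with a median of -0.10. Ubd, which encodes FAT10, a modifier induced by interferon gamma and tumour necrosis factor, gave 6.89, 8.88 and 8.79 on arrays 1, 4 and 5 (SAH), against 5.29, 5.52 and 5.16 on arrays 6, 7 and 8 (sham). SAH array 1 lay far below the other SAH arrays, and the difference of 2.87 ± 0.51 (SE) missed the threshold (limma adjusted p = 0.0700), but passed without SAH array 1 (0.000939). On all 6 arrays Ubd passed with array weights and with the trend and robust options (limma adjusted p = 0.03145 and 0.04955). The filter on dim probe sets did not keep Ubd. Its values on SAH array 1 and the sham arrays lay below the medians of those arrays (7.32 to 7.34). Sumo2 and Nedd8 differed by -0.28 ± 0.10 and -0.17 ± 0.09.

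With all 6 arrays the ISG15 pathway gene had the largest difference in each family. Without SAH array 1 Ubd (3.52) exceeded Isg15 (3.47), and the order at the top of the other 4 families held in each fit with an array left out. Against the next largest of its family, the excess was 0.37 ± 0.43 (SE) for Isg15 over Ubd, 1.74 ± 0.19 for Uba7 over Uba1, 0.49 ± 0.10 for Ube2l6 over Ube2e2, 1.13 ± 0.24 for Herc6 over Herc3 and 1.16 ± 0.15 for Usp18 over Usp25. The within-array differences of SAH and sham overlapped for Isg15 and Ubd (exact permutation p = 0.6) and not for the other 4 pairs (exact permutation p = 0.1, the smallest possible, adjusted 0.125 over 5 pairs). These pairs were chosen after the differences were seen.

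**Figure D3:**
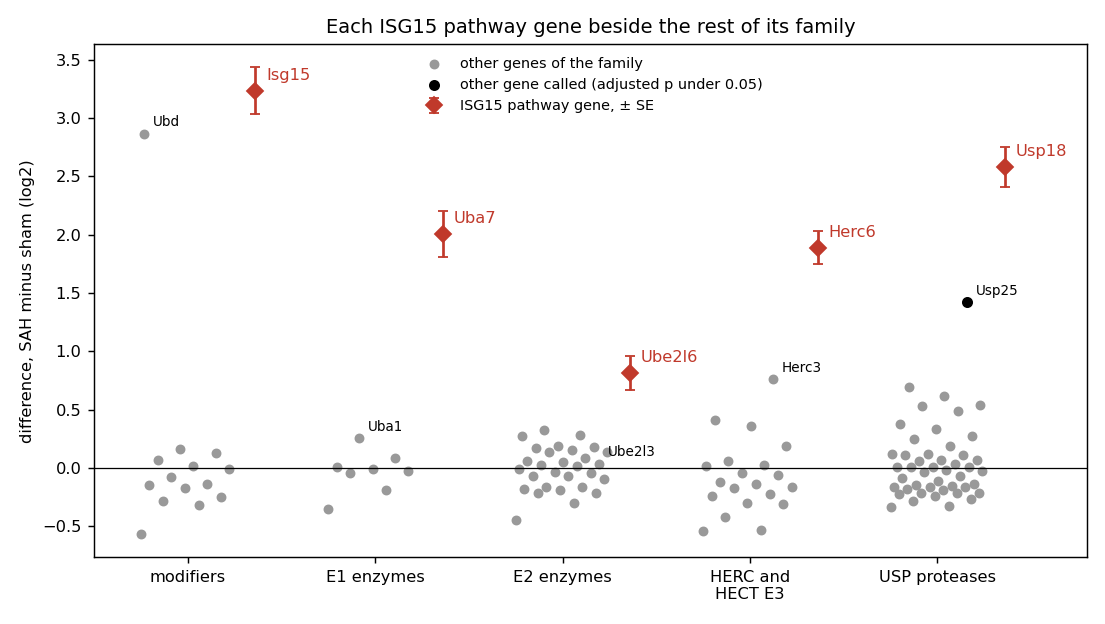
Difference SAH minus sham on the log2 scale (vertical axis) for the other genes of each family (grey, or black where called) and for the ISG15 pathway gene of that family (red, ± SE). The red points lie between 0.81 and 3.23 and above every grey or black point of their own column, with Ubd nearest to Isg15 in these fits on all 6 arrays.

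Genes whose proteins work with ISG15 or USP18 moved in part. Of 11 measured, 2 rose and none fell, against 0.963% called higher and 0.33% lower over all genes. The median over the 11 was 0.01. Trim25, a ligase that has also been described to attach ISG15 in human cells, gave 11.74, 12.14 and 12.19 on arrays 1, 4 and 5 (SAH), against 10.67, 10.59 and 10.70 on arrays 6, 7 and 8 (sham). All SAH values were higher, by 1.37 ± 0.14 (SE; 2.59-fold; limma adjusted p = 0.0116), and of the 6 fits with an array left out the call held only without SAH array 1 or sham array 8 (adjusted p up to 0.0871 in the others). Stat2, whose protein brings USP18 to the interferon receptor in human cells, was 2.35-fold higher, with 12.05, 12.27 and 12.21 on arrays 1, 4 and 5 (SAH), against 10.91, 11.08 and 10.84 on arrays 6, 7 and 8 (sham) (1.23 ± 0.11 SE; limma adjusted p = 0.00785). It was called in 4 of 6 such fits and not without SAH array 4 or sham array 6, where the adjusted p reached 0.0682.

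The remaining 9 did not pass. Arih1, a ligase also described to act on ISG15 in human cells, differed by 0.03 ± 0.09 (SE), and the proteases Usp14, Usp5, Usp2, Usp13 and Usp21, for which activity on ISG15 has been described outside the rat, by between -0.21 and 0.01. Skp2, a ligase subunit that targets USP18 for breakdown, differed by -0.02 ± 0.18. The LFA-1 subunit genes Itgal and Itgb2, which leukocytes express, differed by 0.64 ± 0.13 and 0.64 ± 0.24 (limma adjusted p = 0.0989 and 0.291). Itgal passed with the filter on dim probe sets (limma adjusted p = 0.0396).

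Upstream, 3 of 8 measured genes of type I interferon signalling rose and none fell, against 0.963% called higher and 0.33% lower over all genes. Irf7, a transcription factor of the interferon response, differed by 2.54 ± 0.15 (SE), Stat2 by 1.23 ± 0.11 and Irf9, a DNA-binding partner of STAT2, by 0.89 ± 0.10 (limma adjusted p = 0.00221, 0.00785 and 0.0180). The receptor gene Ifnar1 and the kinase genes Jak1 and Tyk2 differed by -0.02 ± 0.09, 0.14 ± 0.10 and 0.07 ± 0.10 and did not pass. With an array left out, Irf7 passed in 6 of 6 fits and Irf9 only without SAH array 1 (adjusted p up to 0.123 in the others). Ifnar2 had no probe set of its own among the values used here.

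Of 13 measured genes whose proteins have been described as ISG15 conjugates in human or mouse cells, 4 rose and none fell: Mx1, Rig1, Ifih1 and Stat2. Over all genes, 0.963% were called higher and 0.33% lower. Mx1, an antiviral GTPase, differed by 3.26 ± 0.33 (SE) and the RNA sensors Rig1 and Ifih1 by 2.36 ± 0.12 and 2.26 ± 0.30 (limma adjusted p = 0.0116, 0.00189 and 0.0304). Stat2 is also counted among the partners and upstream genes. Rig1 passed in 6 of 6 fits with an array left out. Mx1 passed in 3 (dropping SAH array 1, or number 7 or 8 of the sham arrays) and Ifih1 only when SAH array 1 was dropped, with adjusted p up to 0.0858 and 0.158 in the others. The other conjugate genes did not pass. Plcg1, a phospholipase gene, was the lowest of them (-0.66 ± 0.12 SE, limma adjusted p = 0.0704, and 0.0430 without SAH array 1), and Irf3, Jak1, Tsg101 and Pcna differed by -0.23, 0.14, -0.13 and 0.01. Plcg1 was also called lower with the filter on dim probe sets, the trend and robust options and array weights (limma adjusted p = 0.0272, 0.0438 and 0.0451).

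**Figure D4:**
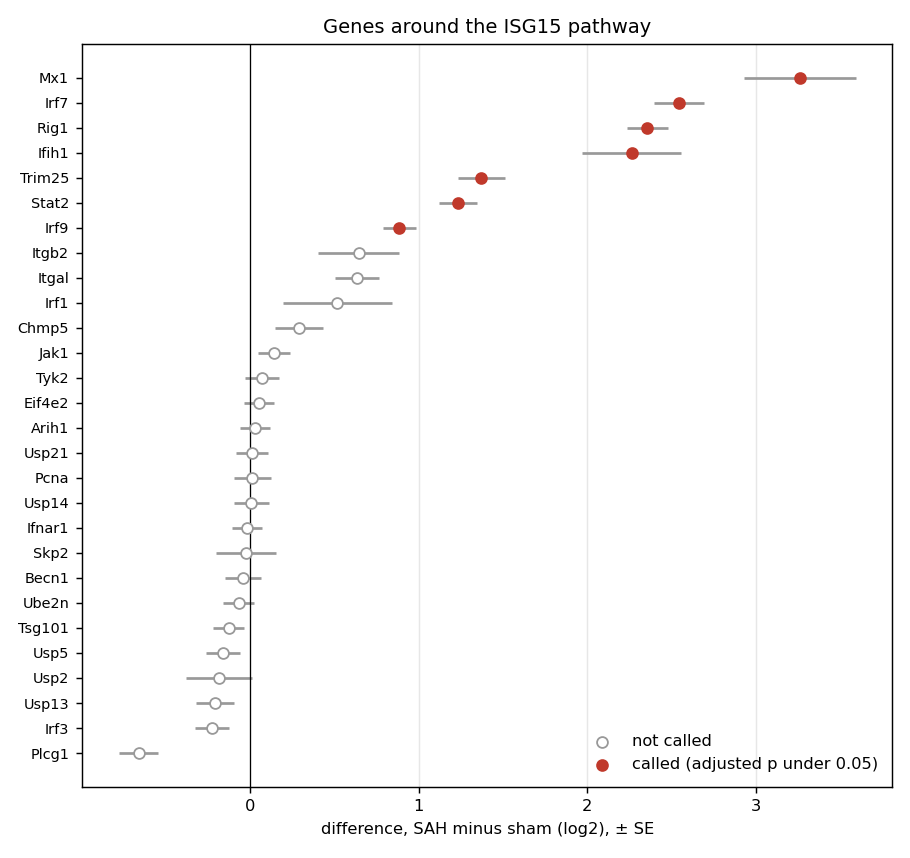
Difference SAH minus sham (horizontal axis, log2, ± SE) for 28 genes whose products work with, act upstream of or carry ISG15, with the 7 called genes in red. The called genes lie between 0.89 and 3.26 and most of the others lie near 0. Over all genes, 0.963% were called higher.

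The genes most like each of the 5 were taken as those with the smallest root mean square difference over the 6 arrays, after each gene was centred on its own sham mean. For Isg15 these were Cmpk2, a mitochondrial nucleotide kinase (0.149 log2 units), Zbp1, a nucleic acid sensor (0.173), and Gbp1, a guanylate-binding protein (0.177). For Usp18 they were Irf7 (0.0813), the class I histocompatibility gene RT1-T24-3 (0.125) and Rig1 (0.187). Herc6 lay nearest to Sp110, a nuclear body protein gene (0.0678), Lgals9, which encodes galectin-9 (0.0893), and Mlkl, the executioner of necroptosis (0.131). Uba7 lay nearest to Oas1i, of the oligoadenylate synthetases (0.107), Lgals9 (0.136) and Tmem106a (0.136). RT1-T24-3, Gbp1 and Oas1i belong to families with near-identical members, so their own share of the signal is uncertain. Ube2l6 lay nearest to Atp13a1, a transport ATPase gene (0.0512), Rai14 (0.0528) and Nln, the peptidase neurolysin (0.0548), whose differences were 0.80 ± 0.12, 0.80 ± 0.15 and 0.82 ± 0.14 (SE). Among the 5 genes themselves, Uba7 and Herc6 were the most alike (0.207), and Isg15 and Ube2l6 the least (1.71).

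Interferon-regulated genes are bound through the interferon-stimulated response element (ISRE). RefSeq promoters of build GRCr8, which run from 250 bases before to 50 bases after the annotated start, were at hand for 3 of the 5 genes, Uba7, Herc6 and Ube2l6. All 3 at hand are shown, of which Uba7 and Herc6 rose and Ube2l6 did not pass. Uba7 lies at chr8:117543652-117543951 on the plus strand, Herc6 at chr4:88896944-88897243 on the minus strand and Ube2l6 at chr3:90279455-90279754 on the plus strand, each written 5′ to 3′ along the gene. Capitals mark matches to AANNGAAA on either strand.
Uba7: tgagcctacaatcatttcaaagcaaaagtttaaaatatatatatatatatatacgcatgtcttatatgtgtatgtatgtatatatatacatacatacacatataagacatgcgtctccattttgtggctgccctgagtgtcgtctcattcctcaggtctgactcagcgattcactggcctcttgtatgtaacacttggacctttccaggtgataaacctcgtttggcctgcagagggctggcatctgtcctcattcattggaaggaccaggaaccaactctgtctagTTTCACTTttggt
Herc6: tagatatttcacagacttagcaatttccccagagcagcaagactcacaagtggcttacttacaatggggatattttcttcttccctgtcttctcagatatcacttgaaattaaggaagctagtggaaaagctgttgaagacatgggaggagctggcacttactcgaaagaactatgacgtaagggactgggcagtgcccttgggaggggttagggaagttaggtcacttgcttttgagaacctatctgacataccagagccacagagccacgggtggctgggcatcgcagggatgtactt
Ube2l6: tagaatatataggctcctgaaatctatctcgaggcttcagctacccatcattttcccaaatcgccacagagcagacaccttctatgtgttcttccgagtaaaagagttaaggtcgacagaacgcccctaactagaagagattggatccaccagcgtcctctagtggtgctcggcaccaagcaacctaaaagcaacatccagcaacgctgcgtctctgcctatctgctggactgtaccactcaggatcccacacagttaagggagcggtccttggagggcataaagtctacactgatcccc
AANNGAAA, the core that interferon regulatory factors bind, was searched on both strands. It matched once, in Uba7, at bases 38 to 45 after the start and on the strand opposite to the gene, and occurred in 26.4% of 33469 promoters of the same length. TTCNNNGAA, searched likewise and bound by STAT dimers, matched in none of the 3 and in 8.87% of promoters. A match describes the letters only, and was not tested as a binding site. A longer motif, the repeated core, was searched first, and its result is not reported here.

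Over the whole series, 235 of 18166 genes passed, 175 higher and 60 lower. The share called in either direction was 1.29%, and 0.33% were called lower. Leaving out SAH array 1 gave 670 genes. The count was 41 or 59 when SAH array 4 or 5 was dropped, and 29, 55 or 95 when sham array 6, 7 or 8 was dropped. Isg15, Herc6 and Usp18 were called in each of these 6 fits, with adjusted p up to 0.0290, 0.0392 and 0.0308 (limma). The share of all genes called higher was 0.281% without sham array 7 and 0.495% without sham array 8. Under the other settings it was 3.17% of the genes kept by the filter on dim probe sets, 1.01% with quantile normalization repeated, 0.864% with array medians subtracted, 1.33% with the trend and robust options and 1.46% with array weights. It was 0.919% with the mean of all probe sets of a gene, 1.77% at an adjusted p under 0.10 and 0.743% with a minimum log2 difference of 1.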

How the data were processed

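Total RNA of cerebral arteries was labelled with biotin and hybridised to 6 Affymetrix rat arrays. The deposited log2 values were made by the authors with Affymetrix Expression Console 1.1.2 and RMA, per the submitters' processing notes, and were used unchanged. Settings, order of steps and genome build: not given in the sources used here. The number of arrays limits the precision.

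Of 36685 probe sets, 190 were controls and were dropped, which left 36495 for testing. GEO's platform annotation assigns 18511 of them to 1 gene, 575 to several genes and 17409 to none, and only the first kind was used to name genes. The groups were compared in R 4.3.3 by limma 3.58.1 (linear model with eBayes, two-sided and without covariates). Adjusted p follows Benjamini and Hochberg, over the 36495 probe sets. A fold is the antilog of the difference between group means. Pairs of genes were compared by exact permutation tests in scipy 1.17.1. The fit was tested on simulated data.

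The 5 genes, the 9 pathway lists (these 5 among them), the 9 marker lists and the tests were chosen with earlier results of these data known. Named genes are the 5 genes, the called genes of each pathway list or those with the smallest p, and the 3 genes most like each of the 5. Close relatives, partners, some other proteases and some cell markers were also named, after their values were seen. The motifs, also the longer one that was dropped, were chosen after the promoters were seen. The alternatives were a filter on dim probe sets, repeated quantile normalization, median centring, trend and robust options, array weights, other thresholds, the mean of a gene's probe sets, a neutrophil covariate and each array left out. The groups share no array numbers, and no scan date or batch is given.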

Additional observations from a re-analysis of the deposited data

How the results depend on the processing

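The number of the 5 genes called ranged from 3 to 5 over every alternative run, and no alternative turned the direction of any of them. Isg15, Herc6 and Usp18 passed in every one. Ube2l6, at 0.81 in the main setting, passed with the filter on dim probe sets (0.81), with the trend and robust options (0.81) and with array weights (0.85), as well as at the looser threshold and without SAH array 1. Uba7 did not pass with the neutrophil covariate (2.09). With an array left out, the differences ranged from 3.08 to 3.47 for Isg15, 1.87 to 2.20 for Uba7, 0.72 to 0.96 for Ube2l6, 1.79 to 1.98 for Herc6 and 2.47 to 2.73 for Usp18, and 3 to 5 of the 5 genes passed. The count of all genes, 235, was 672 with the filter, 363 with trend and robust options, 373 with array weights, 45 with the neutrophil covariate, 530 at an adjusted p under 0.10, 155 with a minimum log2 difference of 1, and 29 to 670 with an array left out. Of the genes in the pathway lists apart from the 5, 8 were called, against 3 with the neutrophil covariate (Irf7, Mx1 and Rig1) and 2 to 15 with an array left out. Their count was 11 with the filter, 10 with trend and robust options and 10 with array weights. It was 12 at an adjusted p under 0.10 and 7 with a minimum log2 difference of 1. The filter tests fewer probe sets. The cause of the changes was not tested for any setting, the filter included. Between Uba7 and Herc6 the difference ranged from -0.0207 to 0.2239 with an array left out and reversed without SAH array 4 (-0.0207) and without sham array 8 (-0.0032), and the 9 other pairs kept their sign in all runs. No paired analysis was possible because the groups share no array numbers.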
